A study of Rattus norvegicus with 8 samples.

Results

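Activated Ccl4/Cd83 microglia of the rat spinal cord were described in 8 single-cell RNA libraries prepared 7 days after surgery. They were the cells with at least 30 unique molecular identifiers (UMIs) of C1qa, C1qb and C1qc together, at least 5 of Ccl4 and Cd83 together, at most 2 of P2ry12, Tmem119 and Sall1 together, at most 1 of Mki67 and Top2a, at most 1 of Fabp4, under 5 of Cxcl1 and at most 2 of Mrc1 and Cd163. A cell also had to hold at least 1000 UMIs and at most 10% of them from mitochondrial genes. The cells were chosen by these measured values, so the levels of the genes in the rule are given as a description, with no test. In all, 2645 cells met the rule, 4.62% of the 57296 cells that passed the UMI and mitochondrial limits and 15.7% of the 16889 cells with at least 30 C1q UMIs.

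The animals were female Wistar rats of 8 weeks. Sham rats had the thoracic cord exposed but not struck. In the other rats a 10 g weight fell on the exposed cord from the lowest of 3 heights (mild), from 25 mm (moderate) or from 50 mm (severe). Each group had 2 libraries, made from the operated stretch of cord after enzymatic digestion. The 8 libraries were described as 8 cords, which points to 1 cord per library.

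Microglia are the resident macrophages of the central nervous system. At rest they carry the purinergic receptor P2ry12, the membrane protein Tmem119 and the transcription factor Sall1, and they produce the C1q complement subunits. On activation, NF-kB dimers move into the nucleus and switch on chemokines, cytokines and their own inhibitors. Ccl4, like Ccl3, is a chemokine that attracts monocytes, natural killer cells and T cells. Cd83 is a surface glycoprotein of activated dendritic cells, lymphocytes and microglia. Enzymatic digestion is itself known to switch on immediate early genes and chemokines in microglia, and every library here went through it.

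The libraries contributed very unequal numbers of these cells. The cells numbered 57 and 323 in sham, 238 and 591 in mild, 1167 and 185 in moderate, and 24 and 60 in severe. Moderate replicate 1 alone held more of them than the sham and severe libraries together. Their summed UMIs ran from 336287 in severe replicate 1 to 9438890 in moderate replicate 1, and the median cell held between 7641 UMIs (moderate replicate 1) and 15224 UMIs (severe replicate 2). None of their barcodes occurred in more than 1 library, although 555 of the 68095 distinct barcodes of the series did. When the 7.7% of cells with the highest doublet scores were marked in each library, 148 of the 2645 cells (5.60%) were among them, with the highest shares in severe replicate 1 (16.7%) and sham replicate 1 (10.5%) and between 4.32% and 7.43% in the others.

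Sham replicate 1 and both severe libraries stood apart from the other 5. The median mitochondrial share of the activated cells was 1.86% in sham replicate 1, 3.08% and 2.60% in severe, and between 4.95% and 6.78% in the others. Rps19, a ribosomal protein gene, was at 183 and 179 CPM in sham, 40.4 and 34.4 in mild, 82.5 and 67.3 in moderate, and 1398 and 1271 in severe, as counts per 1000000 summed UMIs (CPM). Both severe libraries were several times above the others, and the same gap was present in all remaining cells of these libraries, at 1508 and 1084 CPM in severe. S100a9, a calcium-binding protein of neutrophils, was at 5413 CPM in the activated cells of sham replicate 1, at most 268 CPM in those of the other libraries, and at 41353 CPM in the remaining cells of sham replicate 1. The main results between conditions are given with the number of fits without 1 library in which their call held.

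The label was checked against 5 markers, of which C1qb, Ccl4 and Cd83 were part of the rule. Csf1r, the receptor for colony-stimulating factor 1 on which microglia depend, was at 515 to 1274 CPM over the 8 libraries, and Fcgr3a, an activating Fc receptor, at 584 to 1059 CPM. After thinning to 3000 UMIs, which left 2574 of the activated cells and 3760 oligodendrocytes (at least 3 UMIs of Mag and Mog together and under 5 of C1q), Csf1r was detected in 91.3% of the former and 3.32% of the latter. Fcgr3a was detected in 79.3% and 1.52%. Without thinning the shares were 98.5% and 10.5% for Csf1r and 94.1% and 7.07% for Fcgr3a. Oligodendrocytes should lack both genes and were taken as a rough measure of free RNA, at a median depth between 9049 and 22676 UMIs per library. Their limit on C1q left out oligodendrocytes with more free microglial RNA, so their shares can understate this background. The pools also drew on the libraries unequally. After thinning, sham replicate 1 gave 1399 oligodendrocytes and 56 activated cells, and moderate replicate 1 gave 188 and 1163. Both markers outside the rule were thus present in most activated cells. Monocyte-derived macrophages carry them too, so they do not tell microglia from those cells.

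Microglial identity genes outside the rule were also measured. Of 20 such genes, 19 were detected, led by Csf1r, and Rnase4 was at 0. They summed to 1698 and 3445 CPM in sham, 2992 and 3211 in mild, 2807 and 1977 in moderate, and 2703 and 2004 in severe, below the sum of the monocyte-like markers given in the next paragraph in 6 of 8 libraries. The rule itself limits P2ry12, Tmem119 and Sall1, which are not in the identity sum. Lyz2 alone made up most of the monocyte-like sum, with 1426 of 1626 CPM in sham replicate 2 and 7511 of 7931 CPM in severe replicate 2. Cx3cr1, the fractalkine receptor, was at 68.4 to 183 CPM. Siglech had no UMI in 6 of the 8 libraries. All 16 genes of the general macrophage list were detected, and their summed level varied little, from 13086 to 14629 CPM.

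Markers of other cells were counted in the same sums, and their part in the results was not tested. Neutrophil markers (12 of 15 detected, led by S100a9, with Ltf, Mpo and Ngp at 0) summed to 8089 and 499 CPM in sham, 419 and 194 in mild, 202 and 211 in moderate, and 65.4 and 62.9 in severe. Oligodendrocyte markers (9 of 9 detected, led by Mbp) summed to 577 and 485 CPM in sham, 491 and 1113 in mild, 399 and 202 in moderate, and 2614 and 1259 in severe. Fibroblast and mural markers (9 of 9 detected, led by Mgp) summed to 142 and 17.4 CPM in sham, 48.5 and 17.4 in mild, 169 and 47.3 in moderate, and 919 and 602 in severe. Neutrophil transcripts were highest in sham replicate 1, and myelin and fibroblast transcripts in the severe libraries. Erythroid markers (4 of 4 detected, led by Ahsp) were at 0 in 7 libraries and summed to 61.6 CPM in severe replicate 2. Monocyte-like markers (12 of 12, led by Lyz2) summed to 3029 and 1626 CPM in sham, 2089.7 and 3252 in mild, 4061 and 4548 in moderate, and 4463 and 7931 in severe, and border macrophage markers (8 of 9, led by Pf4, with Cd209f at 0) to 1509 and 298 CPM in sham, 711 and 827 in mild, 621 and 909 in moderate, and 345 and 849.9 in severe. T and natural killer cell markers summed to at most 20.8 CPM in any library, with Gzma and Gzmb at 0, and B cell markers to at most 14.9 CPM, with Ms4a1 and Pax5 at 0.

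The share of activated cells differed more within the sham, mild and moderate groups than between sham and injured cords. They made up 0.617% and 12.2% in sham, 3.18% and 6.99% in mild, 10.7% and 2.84% in moderate, and 0.601% and 0.741% in severe of all cells that passed the limits. The 95% Wilson interval, which covers counting error only, ran from 0.477% to 0.799% in sham replicate 1 and from 11.01% to 13.5% in sham replicate 2. The means were 6.41% ± 8.20 (SD, n = 2) in sham and 4.18% ± 3.96 (SD, n = 6) in injured cords. The exact permutation test over libraries did not separate them (difference -2.23 percentage points, two-sided p = 0.643, adjusted p = 0.929 over 2 shares), and with 2 against 6 libraries the smallest p it can give is 0.0714. Without sham replicate 2 the injured mean was 3.57 percentage points above sham, so that library set the direction.

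Among cells with at least 30 C1q UMIs, the sham shares lay close together. They were 11.7% and 14.4% in sham, 12.2% and 17.5% in mild, 25.6% and 9.84% in moderate, and 5.77% and 3.04% in severe. Both severe libraries lay below the 6 others, while the 3 other groups overlapped. The means were 13.03% ± 1.94 (SD, n = 2) in sham and 12.3% ± 8.23 (SD, n = 6) in injured cords, and did not separate (exact permutation test, two-sided p = 0.929, adjusted p = 0.929). After every cell was thinned to 5000 UMIs before the rule was applied, the shares were 21.0% and 34.1% in sham, 25.9% and 27.2% in mild, 37.0% and 22.5% in moderate, and 18.3% and 9.78% in severe, and both severe libraries again lay below the others.

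**Figure D1:**
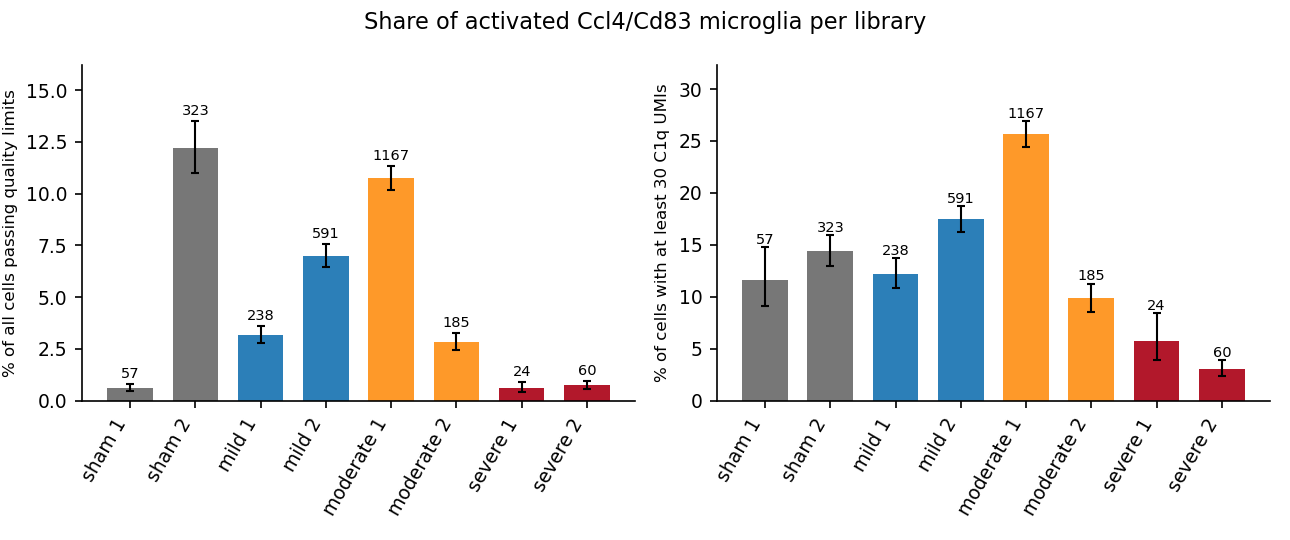
Share of activated Ccl4/Cd83 microglia in each library, as percent of all cells that passed the quality limits (left) and of cells with at least 30 C1q UMIs (right); bars are single libraries with their number of activated cells above, and error bars are 95% Wilson intervals for counting error. Sham 2 and moderate 1 are highest on the left, at 12.2% and 10.7%, and both severe libraries are lowest on the right.

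Ccl4 carried more cells past the rule than Cd83. Of the 2645 cells, 1381 (52.2%) had at least 5 UMIs of both genes, 854 (32.3%) of Ccl4 only, 309 (11.7%) of Cd83 only, and 101 (3.82%) passed through the sum alone. Cd83 was at 0 in 40.4% and 12.7% of the cells of the sham libraries and in at most 3 of 24 cells (severe replicate 1) in the injured libraries. There were 78 cells at exactly 5 UMIs of Ccl4 and Cd83 and 97 otherwise matching cells at 4. The limit on P2ry12, Tmem119 and Sall1 lay in a denser part of the distribution, with 623 cells at 2 UMIs, 476 otherwise matching cells at 3 and 1025 cells at 0.

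In the summed counts of the activated cells, Ccl4 was at 3355 and 4133 CPM in sham, 3075 and 2535 in mild, 2437 and 8782 in moderate, and 5590.5 and 5953 in severe. The moderate libraries were the highest and the lowest of all, both severe libraries lay above both sham libraries, and both sham libraries above both mild ones. Cd83 was at 122 and 413 CPM in sham, 660.1 and 725 in mild, 1044 and 1206 in moderate, and 1109 and 861 in severe. Both sham libraries lay below all 6 injured ones for Cd83. P2ry12, limited by the rule, was at 15.7 to 64.5 CPM, Tmem119 at 27.2 to 53.4 CPM and Mrc1, the mannose receptor of border macrophages, at 3.48 to 54.2 CPM. Per cell, Ccl4 had a median of 25.1 UMIs per 10000, with quartiles of 9.99 and 49.7, and Cd83 a median of 7.58, with quartiles of 3.50 and 12.99.

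**Figure D2:**
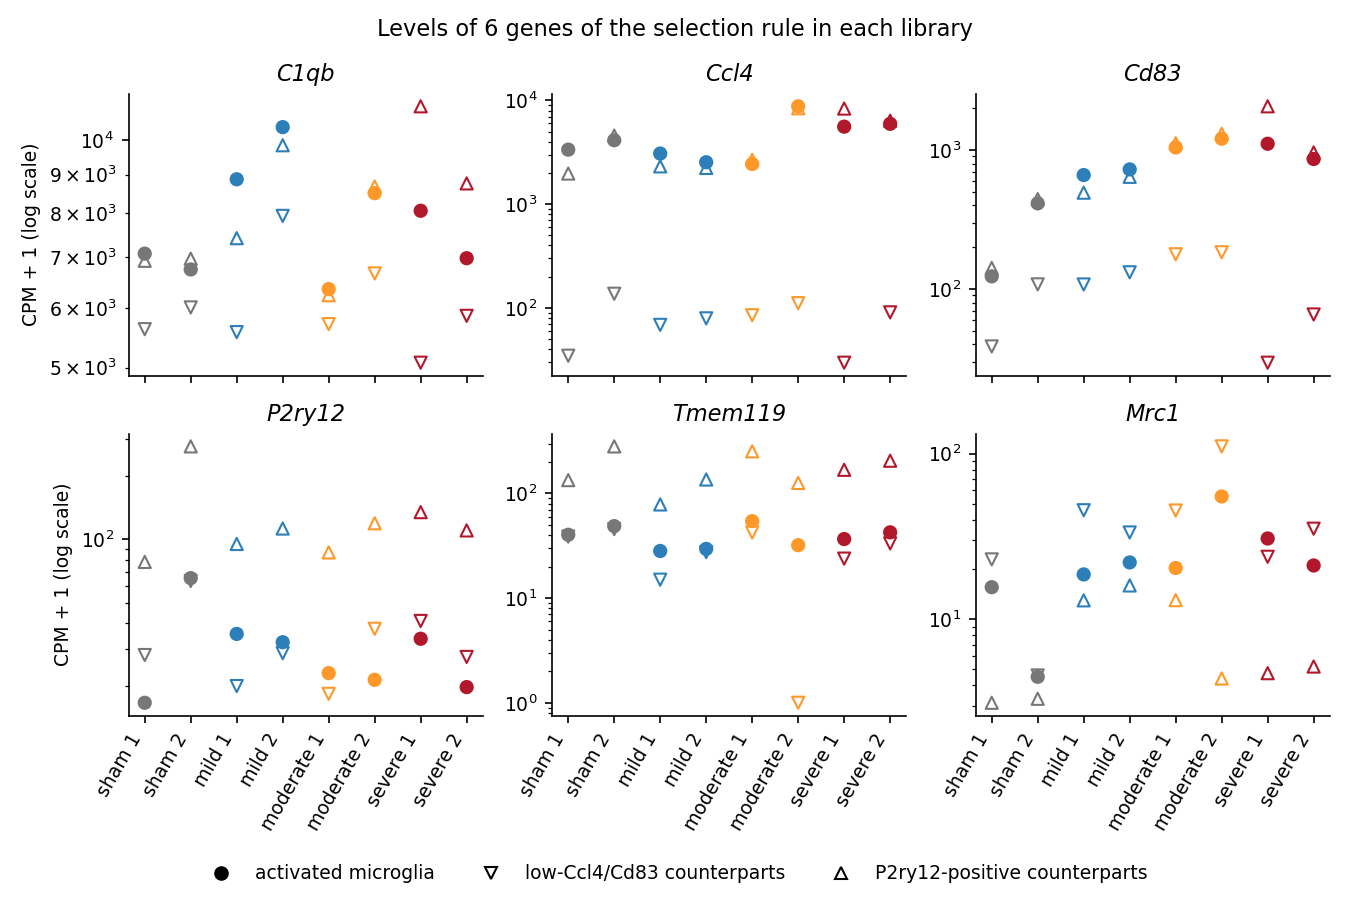
Levels of genes used by the rule in each library (CPM + 1, log scale) in the activated microglia, in cells that missed only the Ccl4 and Cd83 limit and in cells that missed only the P2ry12, Tmem119 and Sall1 limit, coloured by group. The rule fixes the gaps between the 3 sets, and Cd83 in the activated cells is lowest in the 2 sham libraries, at 122 and 413 CPM.

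The first comparison set the activated cells against 868 cells of the same libraries that met every limit but had under 5 UMIs of Ccl4 and Cd83, called low counterparts here. It used the 7 libraries with at least 20 cells in each set, and left out moderate replicate 2, which had 7 low counterparts. Of 7602 genes tested with library as a block, 136 were higher in the activated cells (1.79% of genes tested) and 107 lower (1.41%). A gene that varies from cell to cell together with Ccl4 or Cd83 has to differ between sets cut on those genes, and the test shows for which genes the difference exceeded its spread over libraries. The low counterparts were shallower, with a median of 4819 UMIs against 14008 in sham replicate 1, 3518 against 13914 and 3922 against 15224 in the severe libraries, and 7232 against 7641 in moderate replicate 1. After every cell was thinned to 5000 UMIs and the rule applied again, 210 of the 243 calls passed again in the same direction. The sets of that fit were partly other cells. It held moderate replicate 2 (23 low counterparts) in place of severe replicate 1 (12).

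Genes of the NF-kB system rose in the activated cells. Of 21 genes of this list tested, 11 were higher and 0 lower, with a median log2 fold change of 0.86 against -0.00164 over all genes tested. Nfkbia encodes IkB-alpha, which holds NF-kB in the cytoplasm and is itself induced by it. It was at 476 to 1531 CPM (median 1465) in the activated cells and at 173 to 641 CPM (median 419) in the low counterparts. It was higher in 7 of 7 libraries, by 1.60 ± 0.10 on the log2 scale (SE, edgeR quasi-likelihood test, Benjamini-Hochberg adjusted p = 4.73e-06), although the ranges over libraries overlapped.

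Other feedback genes of the pathway were higher too. Tnfaip3 encodes A20, an enzyme that edits ubiquitin chains and restrains the pathway. It was at 8.92 to 55.6 CPM in the activated cells against 0 to 10.5 CPM, a log2 difference of 2.49 ± 0.31 (edgeR adjusted p = 0.000807). The atypical nuclear IkB genes Nfkbid and Nfkbiz rose by 2.25 ± 0.26 and 1.85 ± 0.22 (edgeR adjusted p = 0.000541 and 0.000704). Among the subunits, Rel was higher by 1.63 ± 0.28 (edgeR adjusted p = 0.00651), while Nfkb1 and Rela had differences of 0.49 ± 0.20 and 0.19 ± 0.19 that did not pass the test (edgeR adjusted p = 0.249 and 0.689). The other members called were Birc3, Icam1, Ier3, Sod2, Zc3h12a and Gadd45b, at 0.55 to 2.78. Birc3 was called in 4 of 7 fits that left out 1 library and Gadd45b in 4 of 7.

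Promoter sequences are shown for genes that rose together in this comparison. RefSeq promoters (250 bases before to 50 after the start, build GRCr8) were found for 9 of the 11 NF-kB list genes that rose. A kappaB-type motif, GGGNNTTTCC on either strand, was present in 4 of them (Nfkbia, Nfkbiz, Rel and Tnfaip3), in 6 of the 21 promoters found for the whole list, and in 1.51% of all 27457 promoters. Among the promoters of other genes that rose, it was present in 1 of 3 of the chemokine list (Cxcl2), 1 of 3 of the co-stimulation list (Cd86), 0 of 2 of the cytokine list and 0 of 12 of the immediate early list. The cyclic AMP response element TGACGTCA, which reads the same on both strands, was present in 4 of the 12 promoters found for immediate early genes that rose (Btg2, Dusp1, Ier2 and Maff) and in 1.91% of all promoters. The 150 bases before the start are printed on the strand of the gene, 5′ to 3′, with the motif in capitals, for Nfkbia, Tnfaip3, Nfkbiz and Cxcl2 (kappaB type) and for Ier2 and Dusp1 (cyclic AMP response element). A match of letters describes the window, and no binding was measured.
Nfkbia (chr6:78597073-78597222, - strand): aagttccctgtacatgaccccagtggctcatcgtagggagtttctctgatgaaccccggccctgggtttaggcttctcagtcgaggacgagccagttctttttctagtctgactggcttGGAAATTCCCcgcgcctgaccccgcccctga
Tnfaip3 (chr1:15543980-15544129, - strand): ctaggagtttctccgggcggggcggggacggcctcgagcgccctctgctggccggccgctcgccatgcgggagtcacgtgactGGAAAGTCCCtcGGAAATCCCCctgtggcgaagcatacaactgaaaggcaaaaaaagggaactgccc
Nfkbiz (chr11:58251571-58251720, + strand): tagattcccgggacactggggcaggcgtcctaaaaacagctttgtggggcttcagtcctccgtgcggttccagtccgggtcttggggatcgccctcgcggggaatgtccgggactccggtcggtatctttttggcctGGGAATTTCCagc
Cxcl2 (chr14:17467256-17467405, - strand): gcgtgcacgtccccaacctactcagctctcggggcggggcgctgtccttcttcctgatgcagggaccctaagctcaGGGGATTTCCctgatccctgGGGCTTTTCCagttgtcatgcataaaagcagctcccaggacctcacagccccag
Ier2 (chr19:40399223-40399372, + strand): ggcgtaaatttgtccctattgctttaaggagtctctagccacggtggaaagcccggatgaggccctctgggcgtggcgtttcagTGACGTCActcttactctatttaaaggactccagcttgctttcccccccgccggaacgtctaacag
Dusp1 (chr10:17184703-17184852, + strand): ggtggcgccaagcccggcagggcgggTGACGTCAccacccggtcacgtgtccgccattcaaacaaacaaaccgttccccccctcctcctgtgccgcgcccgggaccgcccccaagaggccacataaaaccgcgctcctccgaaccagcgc
The match in Nfkbia ended 21 bases before the start and that in Nfkbiz 3 bases before it, and Tnfaip3 and Cxcl2 each held 2 matches.

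Chemokine genes other than Ccl4 rose in part. Of 13 tested, 5 were higher and 0 lower (median log2 fold change 0.90). Ccl3, a chemokine closely related to Ccl4, was at 1383 to 2652 CPM (median 1741) in the activated cells and at 123 to 851 CPM (median 230.3) in the low counterparts. These ranges did not overlap, and the difference was 2.67 ± 0.30 (edgeR adjusted p = 0.000541). Ccl12, a monocyte chemoattractant, rose by 2.42 ± 0.19 (edgeR adjusted p = 7.59e-05) in 7 of 7 libraries, although its level in the activated cells ran from 5.95 to 555 CPM. Ccl2, the main ligand of Ccr2, rose by 1.75 ± 0.23, Cxcl2, which attracts neutrophils, by 1.76 ± 0.28, and Ccl7 by 1.56 ± 0.35 (edgeR adjusted p = 0.00130, 0.00413 and 0.0339). Ccrl2, an atypical receptor that binds chemerin, rose by 2.21 ± 0.23 (edgeR adjusted p = 0.000299).

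Both interleukin-1 genes, Il1b and Il1a, rose. Il1b was at 126 to 2168 CPM (median 278) in the activated cells and at 22.5 to 291 CPM (median 50.0) in the low counterparts. It was higher in 7 of 7 libraries, by 2.70 ± 0.26 (edgeR adjusted p = 0.000285), and the severe libraries held its highest levels in the activated cells. Il1a rose by 3.41 ± 0.58 (edgeR adjusted p = 0.00610) from 0 to 11.4 CPM in the low counterparts. Tnfsf9, the ligand of 4-1BB, and Csf1 completed the 4 of 11 cytokine genes that were higher (median 0.89). Tnf was scarce, at 0.732 to 11.3 CPM in the activated cells.

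Genes of the co-stimulation list rose in part, with 5 of 7 higher (median 0.73). These were Cd40, Cd86, Cd274 (PD-L1), Icam1 and Tnfsf9. Cd86, a ligand of Cd28, was at 59.5 to 187 CPM (median 78.0) against 33.1 to 62.8 CPM (median 57.6) and rose by 0.62 ± 0.13 (edgeR adjusted p = 0.0273). The calls of Cd86 and Cd40 held in 3 of 7 and 3 of 7 fits that left out 1 library.

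Immediate early genes formed the list with the most calls. Of 22 tested, 16 were higher and 0 lower (median 1.01), and 22 estimates were above 0. Nr4a1, an orphan nuclear receptor, was at 68.5 to 232 CPM (median 116) against 5.71 to 70.0 CPM (median 32.3) and rose by 1.96 ± 0.22 (edgeR adjusted p = 0.000515). Btg2, an antiproliferative gene, was at 116 to 1177 CPM (median 463) against 78.5 to 481 CPM (median 133) and rose by 1.32 ± 0.13 (edgeR adjusted p = 0.000285). The AP-1 genes Fos and Jun rose by 0.83 ± 0.14 and 1.10 ± 0.14, and Egr1 by 1.28 ± 0.16 (edgeR adjusted p = 0.00651, 0.00126 and 0.000950). Fos in the activated cells was at 498 and 1520.2 CPM in sham, 3120.2 and 3491 in mild, 3440.3 and 249.9 in moderate, and 449 and 505 in severe. Its level thus varied more between libraries than between the 2 sets of cells. Of 12 heat shock genes Hspa5 was called, at 0.44 ± 0.08 (edgeR adjusted p = 0.0110).

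**Figure D3:**
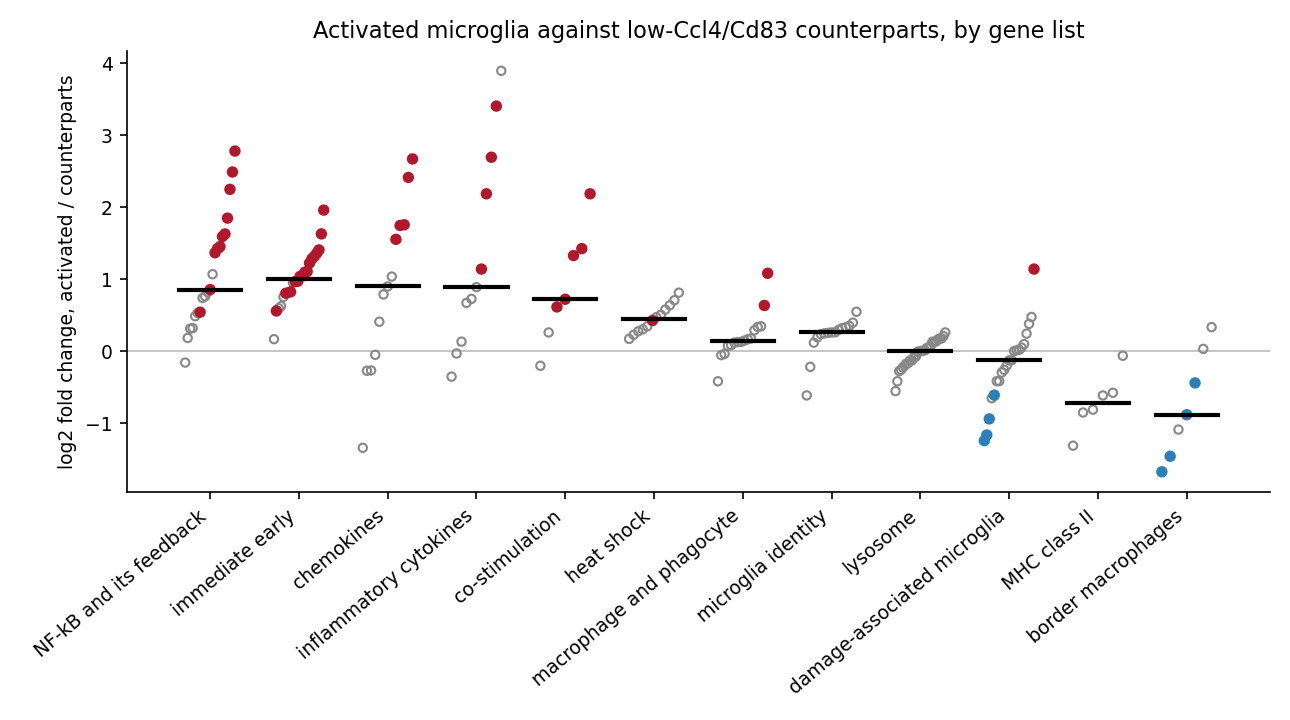
Log2 fold change of single genes between activated microglia and low-Ccl4/Cd83 counterparts in 7 libraries, grouped by gene list, with list medians as bars and genes that passed the test as filled points. The medians of the NF-kB, immediate early, chemokine, cytokine and co-stimulation lists lie between 0.73 and 1.01, and that of the lysosome list at 0.00.

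Most genes of phagocyte function were not called. Among all 7602 genes tested, 1236 had an unadjusted p under 0.05 in edgeR. Of 28 lysosome genes 0 passed in edgeR (median 0.00), with 2 higher and 4 lower at an unadjusted p under 0.05, and 0 and 0 by DESeq2. Of 15 microglia identity genes 0 passed in edgeR (median 0.26), with 5 higher and 0 lower at an unadjusted p under 0.05, and 2 and 0 by DESeq2. Cx3cr1 had a difference of 0.40 ± 0.10 (edgeR adjusted p = 0.0565), and Trem2, a lipid receptor, of 0.02 ± 0.10 (edgeR adjusted p = 0.963). Of 16 macrophage genes, Cd14, the lipopolysaccharide co-receptor, and the transcription factor Irf8 were higher, by 1.09 ± 0.15 and 0.64 ± 0.12 (edgeR adjusted p = 0.00178 and 0.0133). Ch25h, which makes 25-hydroxycholesterol, rose by 1.94 ± 0.19 (edgeR adjusted p = 0.000285).

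Lower genes in the activated cells included Anxa5, Lgals1, Fabp5, S100a10 and S100a11. Anxa5, a phosphatidylserine-binding protein, was at 36.9 to 62.9 CPM (median 53.5) in the activated cells and at 70.1 to 167 CPM (median 121) in the low counterparts. These ranges did not overlap, and it fell by 1.16 ± 0.16 (edgeR adjusted p = 0.00171). Lgals1 (galectin-1) fell by 1.24 ± 0.22 and Fabp5, a fatty acid carrier, by 0.94 ± 0.14 (edgeR adjusted p = 0.00775 and 0.00261). S100a10 was at 33.8 to 180.1 CPM (median 157) against 134 to 455 CPM (median 300.4) and fell by 1.12 ± 0.14 (edgeR adjusted p = 0.000807). S100a11 and the interferon-induced Ifitm1 fell by 1.78 ± 0.22 and 1.91 ± 0.30 (edgeR adjusted p = 0.000941 and 0.00377). Of 21 damage-associated genes 4 were lower (Anxa5, Lgals1, Fabp5 and Vim) and 1 higher (Csf1), while Apoe, the lipid carrier, had a difference of -0.65 ± 0.22 (edgeR adjusted p = 0.155).

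Some markers of other macrophages were lower as well. Of 7 border macrophage genes 4 were lower (median -0.88). Siglec1, a sialic acid receptor, fell by 1.46 ± 0.20, F13a1 by 1.67 ± 0.28, Pf4 by 0.88 ± 0.15 and Folr2 by 0.44 ± 0.09 (edgeR adjusted p = 0.00163, 0.00779, 0.00727 and 0.0266). Of 10 monocyte-like genes F13a1 and Fn1 were lower, and Tgfbi, a matrix protein, fell by 2.28 ± 0.24 (edgeR adjusted p = 0.000299). All 6 MHC class II genes had estimates below 0 (median -0.71) and 0 passed in edgeR, with 0 higher and 2 lower at an unadjusted p under 0.05, and 0 and 0 by DESeq2. At that unadjusted limit in edgeR, 1236 of all 7602 genes tested passed. In summed counts, more cells of another type among the low counterparts and more of these transcripts per cell cannot be told apart.

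**Figure D4:**
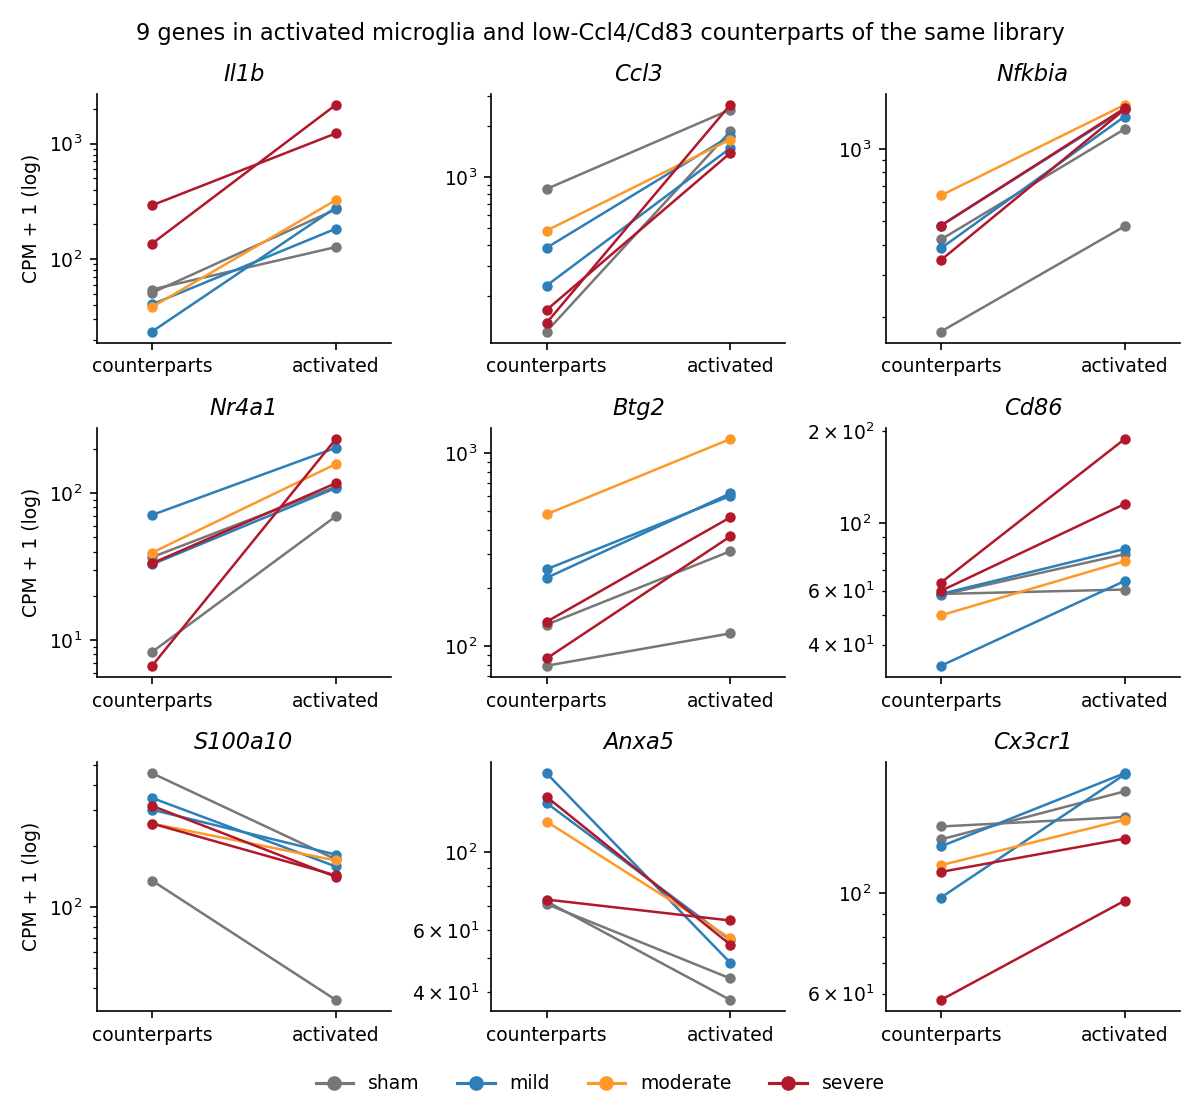
Levels of 9 genes (CPM + 1, log scale) in low-Ccl4/Cd83 counterparts and activated microglia of the same library, with 1 line per library in the colour of its group. Il1b and Nfkbia are higher in the activated cells in 7 of 7 libraries, Anxa5 is lower in 7 of 7, and Cx3cr1 is higher in 7 of 7.

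The second comparison used 1654 cells that met every limit but had over 2 UMIs of P2ry12, Tmem119 and Sall1, called P2ry12-positive counterparts, in all 8 libraries. Of 8639 genes tested, 32 were higher in the activated cells (0.37%) and 7 lower (0.081%). With library size as the only scaling the split was 21 higher and 11 lower. The counterparts were deeper in 7 of 8 libraries, with a median of 20138 UMIs against 14008 in sham replicate 1 and 8124 against 7641 in moderate replicate 1.

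Genes that vary with P2ry12, Tmem119 or Sall1 have to differ between sets cut on those genes, so the side on which the microglia identity genes lay is a description. All 17 tested had estimates below 0 (median -0.35 against -0.01 over all genes tested), and 2 passed. Sparc, a secreted matricellular glycoprotein, was at 337 to 1403 CPM (median 851) in the activated cells and at 453 to 2368 CPM (median 1333) in the P2ry12-positive cells. It was lower in 8 of 8 libraries and fell by 0.50 ± 0.08 (edgeR adjusted p = 0.0182), while its ranges over libraries overlapped. Ltc4s, the leukotriene C4 synthase, fell by 0.55 ± 0.10 (edgeR adjusted p = 0.0264) and was called in 4 of 8 fits that left out 1 library.

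Genes that were higher included MHC class II and interferon-induced membrane proteins. Of 6 class II genes 2 were higher and 6 had estimates above 0 (median 0.74). RT1-Db1, a rat class II beta chain, rose by 0.89 ± 0.15 and Cd74, the invariant chain, by 0.71 ± 0.14 (edgeR adjusted p = 0.0224 and 0.0326), called in 5 of 8 and 3 of 8 fits without 1 library. Cd74 ran the other way in sham replicate 2, at 652 against 747 CPM. Ifitm1 was at 44.9 to 733 CPM (median 292) against 11.5 to 152 CPM (median 67.3), higher in 8 of 8 libraries by 1.80 ± 0.23 (edgeR adjusted p = 0.00575). The same gene was lower in the activated cells than in the low counterparts. Hopx, an atypical homeodomain protein, rose by 0.74 ± 0.09 (edgeR adjusted p = 0.00575).

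Genes of other lists were called from low levels. Mmp12, macrophage elastase, was at 0 to 22.8 CPM against 0 to 1.09 CPM (3.63 ± 0.51, edgeR adjusted p = 0.0182). Clec10a, a galactose-type lectin, was at 2.79 to 209 CPM against 0 to 26.2 CPM (2.66 ± 0.47, edgeR adjusted p = 0.0264), and with Siglec1 it made 2 of 7 border macrophage genes higher. In edgeR, 874 of all 8639 genes tested had an unadjusted p under 0.05. Of 23 NF-kB genes 0 passed in edgeR (median 0.06), with 2 higher and 1 lower at an unadjusted p under 0.05, and 0 and 0 by DESeq2. Of 24 immediate early genes 0 passed in edgeR (median 0.01), with 2 higher and 2 lower at an unadjusted p under 0.05, and 0 and 0 by DESeq2. Of 12 chemokine genes Ccl6 was higher, by 0.57 ± 0.11 (edgeR adjusted p = 0.0326), called in 3 of 8 fits without 1 library.

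The third comparison set the activated cells of injured cords against those of sham cords. In the fit of all 4 groups, 13 of 9045 genes were higher after injury (0.144%) and 40 lower (0.442%). The number of calls was 174 without sham replicate 1, 617 without sham replicate 2 and between 2 and 13 without 1 of the injured libraries, and it was 2 when the injured libraries were fitted as 1 group. Of the 16 genes described below for this comparison, 1 (Retnlg) kept its call in that last fit. In summed counts, fewer cells of a type and less RNA per cell cannot be told apart.

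Some neutrophil transcripts were lower after injury. S100a9 was at 5413 and 268 CPM in sham, 159.9 and 68.8 in mild, 50.2 and 73.1 in moderate, and 0 and 1.26 in severe. Both sham libraries were above all others, sham replicate 1 by far, and the gene fell by 7.19 ± 0.82 (edgeR adjusted p = 0.00999), called in 5 of 8 fits that left out 1 library. Without sham replicate 1 the difference was -3.98. In a fit without 1 library its group is a single library, assumed to vary like the other groups. S100a8, its partner in calprotectin, fell by 4.76 ± 0.59 (edgeR adjusted p = 0.0103), called in 4 of 8 such fits, and its difference was -2.34 without sham replicate 1. With Retnlg and Lcn2 these made 4 of 9 neutrophil genes lower. The call of Retnlg held in 7 of 8 and that of Lcn2 in 1 of 8 fits without 1 library. Neutrophil markers were also high in the remaining cells of sham replicate 1, as given above for S100a9, and their part in this result was not tested.

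Single genes of the interferon, complement and class II lists were lower after injury as well. Isg15, a ubiquitin-like protein induced by interferon, was at 116 and 157 CPM in sham, 14.3 and 39.9 in mild, 27.97 and 14.7 in moderate, and 26.8 and 42.7 in severe. Both sham values were above all injured values, and the gene fell by 2.32 ± 0.37 (edgeR adjusted p = 0.0366), called in 3 of 8 fits without 1 library, and its difference was -2.58 without sham replicate 1. Irf7, a regulator of type I interferon genes, fell by 1.89 ± 0.34 (edgeR adjusted p = 0.0440), the second of 17 interferon genes called (median -0.84 against -0.08 over all genes tested). C3, the central complement component, was at 124 and 97.9 CPM in sham, 15.8 and 17.9 in mild, 26.1 and 9.99 in moderate, and 47.6 and 23.9 in severe. It fell by 2.33 ± 0.32 (edgeR adjusted p = 0.0207), and again both sham values were above all injured ones. The calls of C3 and Irf7 held in 4 of 8 and 1 of 8 fits without 1 library. RT1-Da, a class II alpha chain, fell by 2.33 ± 0.43 (edgeR adjusted p = 0.0440), although severe replicate 2, at 287 CPM, was above sham replicate 2, at 248 CPM. It was the only call among 6 class II genes tested. The call held in 1 of 8 fits without 1 library, and without sham replicate 1 the difference was -1.25 (edgeR adjusted p = 0.136). Clec12a, an inhibitory lectin receptor, fell by 2.29 ± 0.24 (edgeR adjusted p = 0.00953) and was called in 7 of 8 fits without 1 library.

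Gadd45b and Zc3h12a of the NF-kB list and Apoc1 were among the rises after injury. Gadd45b, a stress-induced gene, was at 74.1 and 121 CPM in sham, 163 and 188 in mild, 394 and 486 in moderate, and 746 and 527 in severe. The 4 groups did not overlap and were ordered by severity, and injured cords were higher by 1.84 ± 0.32 (edgeR adjusted p = 0.0433). Zc3h12a, the ribonuclease regnase-1 that degrades cytokine transcripts, rose by 1.60 ± 0.30 (edgeR adjusted p = 0.0474). These were 2 of 23 NF-kB genes (median 0.68). Apoc1, an apolipoprotein, was at 11.2 and 32.8 CPM in sham, 71.7 and 82.3 in mild, 426 and 197 in moderate, and 366 and 255 in severe. It rose by 2.98 ± 0.49 (edgeR adjusted p = 0.0378), with both sham libraries below all others. Of 19 lipid handling genes 1 was higher (Apoc1) and 1 lower (Ch25h), which fell by 1.40 ± 0.25 (edgeR adjusted p = 0.0440, called in 1 of 8 fits without 1 library). Cfd (complement factor D), Ninj1, a membrane protein of plasma membrane rupture, and Cd8a rose by 1.97 ± 0.32, 1.74 ± 0.32 and 2.01 ± 0.36 (edgeR adjusted p = 0.0366, 0.0440 and 0.0440). The calls of Gadd45b, Zc3h12a, Apoc1, Cfd, Ninj1 and Cd8a each held in 1 to 3 of 8 fits without 1 library.

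Heat shock and immediate early genes gave no call between injured and sham cords. Over all 9045 genes tested, 1536 had an unadjusted p under 0.05 in edgeR. Of 12 heat shock genes 0 passed in edgeR, with 0 higher and 4 lower at an unadjusted p under 0.05, and 0 and 0 by DESeq2. Of 24 immediate early genes 0 passed in edgeR, with 4 higher and 0 lower at an unadjusted p under 0.05, and 2 and 0 by DESeq2. Hspa1b, an inducible Hsp70, was at 9183 and 12.54 CPM in sham, 65.4 and 43.9 in mild, 956 and 356 in moderate, and 1445 and 1489.9 in severe. The 2 sham values lay on either side of all injured values.

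**Figure D5:**
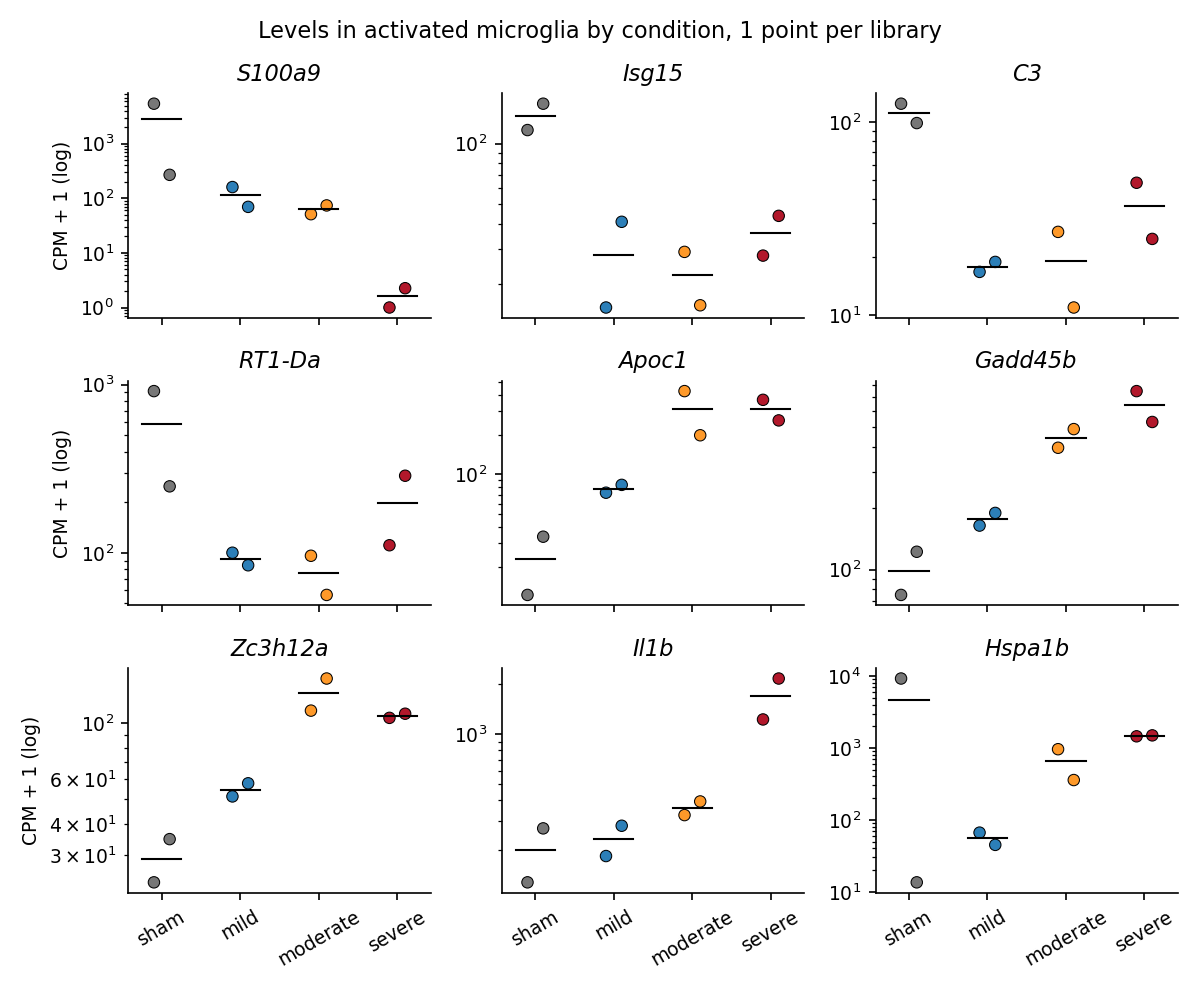
Levels of 9 genes in activated microglia by condition (CPM + 1, log scale), with 1 point per library and the group mean as a bar. S100a9 and Isg15 are highest in both sham libraries, Apoc1 and Gadd45b are lowest there, and Il1b is highest in both severe libraries, at 1225 and 2168 CPM.

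Against sham, single degrees of injury gave few calls. In mild cords 4 genes were higher (0.0442%) and 18 lower (0.199%), and in severe cords 21 were higher (0.232%) and 6 lower (0.0663%). In moderate cords 0 were higher (0%) and 1 lower (0.0111%) in edgeR, with 645 higher and 687 lower at an unadjusted p under 0.05, and 89 and 79 by DESeq2. These comparisons share the sham libraries. Il1b was higher in severe than in sham cords by 3.19 ± 0.50 (edgeR adjusted p = 0.0291), and Rel by 2.25 ± 0.39 (edgeR adjusted p = 0.0485). Oasl of the interferon list was higher there too, by 2.61 ± 0.40 (edgeR adjusted p = 0.0280). Of the same list, Ifitm3, Isg15 and Irf7 did not pass, at 2.74 ± 0.54, -1.81 ± 0.55 and -1.65 ± 0.55 (edgeR adjusted p = 0.0643, 0.223 and 0.238). Differences of the severe libraries as a whole were not tested for these genes. Bst2 (tetherin) and C3 were lower in mild cords and fell by 3.26 ± 0.53 and 2.79 ± 0.44 (edgeR adjusted p = 0.0488 and 0.0488). Of all calls in mild cords, 0 held without mild replicate 1, 0 without mild replicate 2 and 0 when only sham and mild libraries were fitted. The severe calls of Il1b and Rel held in 5 of 8 and 2 of 8 fits without 1 library and ended without either severe library. Without severe replicate 1 and 2 the differences were 3.57 and 2.63 for Il1b and 2.58 and 1.68 for Rel. Over the fits without 1 library, the mild differences ran from -3.60 to -2.94 for Bst2 and from -2.88 to -2.67 for C3.

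Severe cords were also set against mild cords. Of 9045 genes, 69 were higher in severe cords (0.763%) and 21 lower (0.232%), and with library size as the only scaling 49 were higher and 28 lower. Il1b was at 182 and 278 CPM in mild and at 1225 and 2168 CPM in severe libraries, a rise of 3.11 ± 0.50 (edgeR adjusted p = 0.0206). Il1a and Il23a, a subunit of interleukin-23, rose by 4.09 ± 0.72 and 6.10 ± 0.88 (edgeR adjusted p = 0.0283 and 0.0145), so that 3 of 13 cytokine genes were higher. Oasl and Ifitm3 of the interferon list rose by 3.42 ± 0.40 and 3.45 ± 0.53 (edgeR adjusted p = 0.00456 and 0.0180). Olfml3 of the microglia identity list and Tpi1 of the glycolysis list rose by 4.04 ± 0.78 and 3.05 ± 0.49 (edgeR adjusted p = 0.0408 and 0.0206). Gadd45b was called here too (2.05 ± 0.36, edgeR adjusted p = 0.0283). Both severe libraries stood apart as a whole, as given above for Rps19 and the mitochondrial share. The levels of these genes in the remaining cells are not given, and the part of such differences between libraries was not tested. Of the 90 calls, 9 and 4 held without mild replicate 1 or 2, and 10 and 17 without severe replicate 1 or 2. Those of Il1b, Il1a, Il23a, Oasl and Gadd45b held in 4 of 8, 4 of 8, 5 of 8, 5 of 8 and 3 of 8 fits without 1 library. The difference of Il1b was 3.47 without severe replicate 1 and 2.53 without severe replicate 2 (edgeR adjusted p = 0.0760 and 0.143).

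Some genes that differed between severe and mild cords are given beside their levels in the remaining cells of the same libraries, with no test there. Rps19 was higher in severe libraries by 5.36 ± 0.34 and Mt-co3 fell by 2.15 ± 0.40 (edgeR adjusted p = 0.000112 and 0.0385), called in 8 of 8 and 3 of 8 fits without 1 library. In the remaining cells Rps19 was at 1508 and 1084 CPM in severe and 38.5 and 40.1 CPM in mild libraries, and Mt-co3 at 1873 and 2053 CPM in severe and 11677 and 10124 CPM in mild libraries. The fibroblast genes Col3a1, Mgp and Dcn had differences of 5.86 ± 1.08, 4.52 ± 0.84 and 5.24 ± 1.05 (edgeR adjusted p = 0.0361, 0.0375 and 0.0491), called in 4 of 8, 3 of 8 and 2 of 8 fits without 1 library. Col3a1 was at 351 and 65.4 CPM in severe and 6.98 and 1.65 CPM in mild libraries, and in the remaining cells at 1506 and 289 CPM in severe and 232 and 51.6 CPM in mild libraries. When cells with high doublet scores or outlying depth were left out, none of the 3 was called, at -0.17, -1.95 and 0.23 (edgeR adjusted p = 0.992, 0.584 and 0.983). The largest rise by the rule for named genes was that of 1 of the gene models named Hba-a2 (alpha globin), at 11.90 ± 2.36 (edgeR adjusted p = 0.0460), called in 3 of 8 fits without 1 library. It was at 8.92 and 1817 CPM in severe and 0.368 and 0.183 CPM in mild libraries, so severe replicate 2 held most of it. In the remaining cells it was at 1125 and 7514 CPM in severe and 2.47 and 12.9 CPM in mild libraries, and near-identical globin copies make its count uncertain. The severe libraries held 24 and 60 activated cells, so single cells carry weight in their sums.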

How the data were processed

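Spinal cord cells of 8 libraries were profiled by droplet 3' RNA sequencing, 2 libraries each for sham surgery and for a 10 g weight dropped from 12.5, 25 or 50 mm. The matrices deposited by the authors hold raw UMI counts per gene and cell, 32623 genes in all, made with Cell Ranger 5.0.1 (version per the file headers) on rat build Rnor_6.0. Groups came from the sample labels. The rule was applied to these counts, and counts were summed per library for the activated cells and for the counterparts. Sums of cells, not cells, were the replicates. Levels are plain CPM of these sums.

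The sums were tested with edgeR 4.0.16 (R 4.3.3), quasi-likelihood, TMM scaling, filterByExpr and Benjamini-Hochberg adjustment, called at an adjusted p under 0.05. The 4 groups entered 1 fit, and comparisons with counterparts had library as a block and needed at least 20 cells per set. Genes of the rule were left out of tests and adjustment. DESeq2 1.42.0 was an alternative. The code was tested on simulated data. Genes of fixed lists could be named with their list. Besides, for injured against sham, severe against mild and each counterpart comparison, the 8 largest rises and falls were eligible among called genes with a symbol, a mean of at least 50 CPM and libraries that did not overlap (for counterparts, the same direction in every library). Not all of these are described. The members and lists were chosen with earlier results of these data known. Mmp12, Clec10a and other genes named outside the largest rises come from the lists. Certain genes are not reported here and were left out of the marker sums.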

Additional observations from a re-analysis of the deposited data

Results flagged for a closer look

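In 8 of 85 sets of per-library differences, 1 library lay far from the others. Chance does this for about 1 in 20 sets if all libraries vary alike, which was not tested. The values are differences in log2(CPM + 1), and no cause was tested. Against the low counterparts, the difference of Atf3 was 3.13 in sham replicate 1, against 0.57 to 0.92 in the others. That of Maff was -0.93 in sham replicate 1, against 1.07 to 2.33 in the others. Cd40 was at 2.41 in severe replicate 1, against 0.35 to 1.17 in the others, Junb at 2.34 in severe replicate 1, against 0.65 to 1.04 in the others and Nr4a1 at 5.12 in severe replicate 1, against 1.52 to 3.06 in the others. Ier5 was at 1.42 in severe replicate 2, against 0.23 to 0.63 in the others. Against the P2ry12-positive counterparts, Hopx was at 1.34 in severe replicate 2, against 0.43 to 0.78 in the others, and Ifitm1 at 3.84 in severe replicate 2, against 1.00 to 2.03 in the others. Sham replicate 1, severe replicate 1 and severe replicate 2 held 57, 24 and 60 activated cells, the fewest of all libraries.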

How the results depend on the processing

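The number of calls, 22 for mild against sham, 1 for moderate against sham, 27 for severe against sham, 53 for injured against sham, 90 for severe against mild, 243 for the low counterparts and 39 for the P2ry12-positive counterparts, depended strongly on single libraries. Leaving out 1 library in turn gave 0 to 649 for mild against sham, 0 to 344 for moderate against sham, 7 to 385 for severe against sham, 2 to 617 for injured against sham, 4 to 266 for severe against mild, 123 to 307 for the low counterparts and 4 to 75 for the P2ry12-positive counterparts. The difference in share between injured and sham cords ran from -8.02 to 3.57 percentage points of all cells and from -3.36 to 1.16 of C1q cells. The other counts that moved by over 1.5 times are as follows, and the cause was not tested. DESeq2 gave 251 for mild against sham, 168 for moderate against sham, 146 for severe against sham, 177 for injured against sham, 238 for severe against mild and 75 for the P2ry12-positive counterparts. Without a filter on low counts there were 541 for mild against sham, 473 for moderate against sham, 428 for severe against sham, 502 for injured against sham, 419 for severe against mild, 709 for the low counterparts and 291 for the P2ry12-positive counterparts. Library size as the only scaling gave 6 for mild against sham and 15 for moderate against sham. Leaving out high doublet scores and outlying depth gave 20 for moderate against sham, 378 for the low counterparts and 156 for the P2ry12-positive counterparts. The P2ry12-positive fit then held 7 libraries, as severe replicate 1 had 19 such counterparts. Cells with 5000 to 20000 UMIs gave 9 for mild against sham, 14 for severe against sham and 24 for injured against sham. They gave 11 for severe against mild and 131 for the P2ry12-positive counterparts. These fits also held 7 libraries, as severe replicate 1 had 17 activated cells in that window. The part of the lost library in these counts was not tested. Requiring at least 100 cells, which leaves fewer libraries, gave 238 for mild against sham and 148 for moderate against sham, and 432 for the low counterparts and 163 for the P2ry12-positive counterparts. Fitting only the groups compared gave 0 for mild against sham, 0 for moderate against sham, 13 for severe against sham and 251 for severe against mild. Without library as a block there were 2 for the low counterparts and 0 for the P2ry12-positive counterparts, and in injured libraries only 19 for the P2ry12-positive counterparts. Chosen after seeing the data, thinning to 5000 UMIs gave 535 for the low counterparts and 760 for the P2ry12-positive counterparts. The rule was applied again after thinning, and the P2ry12-positive fit then held 4 libraries. The fit of low counterparts held 7, with moderate replicate 2 in place of severe replicate 1. The part of the changed cells and libraries in these counts was not tested. The 6 injured libraries as 1 group, also chosen after seeing the data, gave 2 for injured against sham.

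Replicate numbers did not pair the samples: the correlations of same-numbered deviations lay between -0.170 and 0.0475. A replicate block gave 8 for mild against sham, 5 for moderate against sham, 48 for severe against sham and 28 for injured against sham, and 78 for severe against mild. With the moderate libraries swapped in the block, chosen after seeing the data, there were 25 for moderate against sham.

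Of single genes, Igfbp5, Col3a1 and Mgp turned from higher to lower in severe than mild cords without high doublet scores and outlying depth, at -1.27, -0.17 and -1.95. In fits without 1 library, named genes kept direction and call 289 times and lost the call 167 times. Under the other alternatives these counts were 398 and 99. The libraries held 24 to 1167 activated cells each, and the limit of detection this sets was not tested.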
